A study of Homo sapiens with 4 samples.

Results

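In PC3 cells given vehicle, 1790 FOXA2 sites that were not called after GSK2879552 lay beside a FOXA2 site that was called in both conditions. These sites were taken from the vehicle peak list on chromosomes 1 to 22 and X. Each overlapped no GSK2879552 peak by 1 bp or more, and its summit lay within 12500 bp of the summit of another vehicle peak that did overlap one. The sites were thus chosen by the overlap of the lists and by the distance between vehicle summits. The overlapped peak is termed retained, and the retained peak with the nearest summit is termed the retained neighbour. The 1790 sites were 22.3% (95% exact binomial interval 21.4 to 23.3) of the 8013 vehicle-only peaks on these chromosomes, which held 21065 of the 21308 vehicle peaks. Another retained summit lay in range of 25.6% (24.8 to 26.3) of the 13052 retained peaks and of 24.4% (23.8 to 24.9) of all vehicle peaks on these chromosomes. The 1790 sites shared 1650 distinct neighbours, so they are not independent of each other.

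FOXA2 chromatin immunoprecipitation and sequencing (ChIP-seq) had been carried out in PC3, an androgen-independent prostate cancer cell line, in medium with 5% charcoal-stripped serum. Cells received vehicle, or 50 µM GSK2879552, which inhibits the lysine demethylase LSD1 (encoded by KDM1A), for 4 hours; how long vehicle was given is not stated separately. Each condition had 2 sequencing lanes, which the labels call technical replicates, and 1 peak list that covers both lanes. The sample descriptions name ATAC-seq as the assay, whereas the titles and the series name FOXA2 ChIP-seq, which was followed. With 1 list per condition the spread between cultures is not known, and every difference given here is between these libraries and carries no p-value.

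FOXA2 is a forkhead factor that can bind its sites in compact chromatin and open them to other factors. In the prostate it is best known from neuroendocrine and androgen-independent tumours. LSD1 removes methyl groups from histone H3 and can also act on other proteins. FOXA factors bind largely at enhancers, and a single regulatory region can hold several FOXA sites that differ in strength. The genes and the sequence at these sites were not analysed here, because the reference tables at hand follow another build than the hg19 coordinates of the files.

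The sites beside a retained neighbour were weak in vehicle. The number of sequenced fragments covering the summit, computed from the deposited fold and p-value, had a median of 16 (interquartile range 13 to 19). At the retained neighbours the median was 25 (18 to 36), and at the 5452 isolated vehicle-only sites, with no other vehicle summit within 12.5 kb, it was 13 (12 to 16). The sites thus stood between isolated vehicle-only sites and their own neighbours, as the cumulative plot of fragments shows. At the 8350 retained peaks with no vehicle summit in range the median was 22 (16 to 32). Lower numbers at vehicle-only than at retained peaks were thus not particular to these pairs. The numbers at the sites beside a retained neighbour ran from 8 to 104 fragments. The highest stood over high backgrounds: 104 over 53.0, 72 over 36.3 and 68 over 32.4. At the 1787 sites with a background under 25, the highest was 60, over 24.0. By −log10 p, which sets fragments against the local background, the sites did not stand out from isolated ones, with medians of 9.85 and 9.80. The neighbours had a median of 18.6, and the retained peaks with no vehicle summit in range 18.4. Lack of a GSK2879552 call chose these sites, and weaker sites are called less often, so these values describe the choice and support nothing further.

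**Figure D1:**
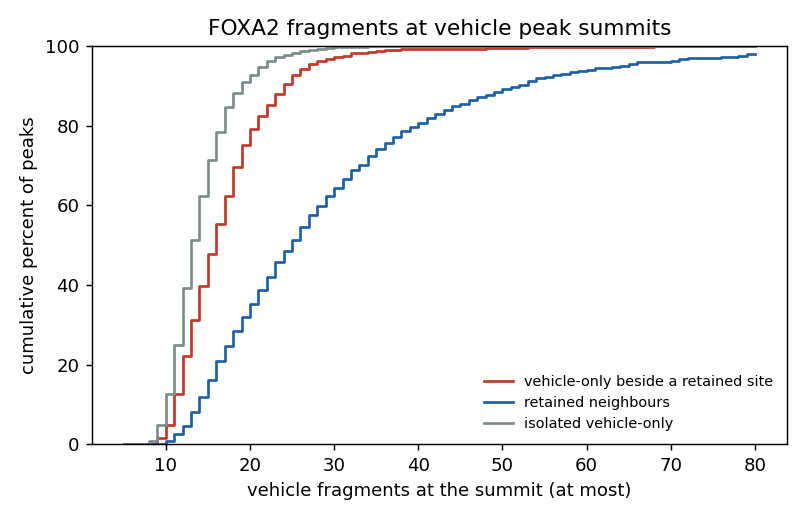
Cumulative percent of vehicle peaks (y axis) with at most the given number of vehicle fragments at the summit (x axis). Lines stand for the 1790 vehicle-only sites beside a retained site, their 1650 retained neighbours and 5452 isolated vehicle-only sites, whose medians are 16, 25 and 13 fragments.

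Within a pair, the vehicle-only site was usually the weaker one. It had fewer vehicle fragments than its neighbour at 1485 of 1790 sites (83.0%, 81.1 to 84.7), as many at 65 and more at 240. The median log2 ratio of site to neighbour was -0.65 (interquartile range -1.14 to -0.21), a ratio of 0.638. A ratio of 0.5 or lower was found at 576 sites (32.2%, 30.0 to 34.4), and a ratio of 2 or higher at 5. Among 3340 retained peaks with another retained summit in range, 49.2% were weaker than the nearest one. There the ratio was 0.5 or lower at 11.6%, and the median log2 ratio was 0. Since weaker sites lose their call more often, the choice of the vehicle-only sites favours fewer fragments at the site than at its neighbour. On all 23 chromosomes the median log2 ratio of site to neighbour was below 0, from -0.83 to -0.45. The vehicle-only sites were also narrower than their neighbours, at 1446 of 1790 pairs, with a median width of 212 bp against 287 bp. Isolated vehicle-only sites and retained peaks with no vehicle summit in range differed likewise, with medians of 210 and 288 bp. The shortest interval in the list, 175 bp, was the width of 291 sites (16.3%), of 50 neighbours (3.03%) and of 950 isolated vehicle-only sites (17.4%).

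**Figure D2:**
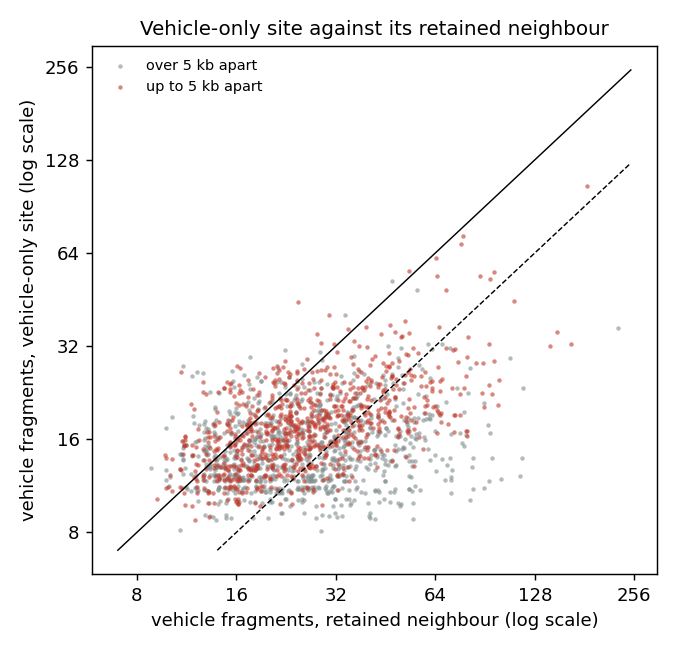
Vehicle fragments at the summit of each of the 1790 vehicle-only sites (y axis) against those of its retained neighbour (x axis), both on log scales with points shifted slightly so that equal values can be told apart. The solid line marks equal numbers and the dashed line a ratio of 0.5, and 1485 sites lie below the solid line.

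The sites with the lowest ratios stood beside very strong peaks. At chr21:36260371-36260545 the site had 12 vehicle fragments, while its neighbour at chr21:36250807-36251150, 9427 bp away, had 113 in vehicle and 78 in GSK2879552. The site at chr2:166642748-166642928 had 14, and its neighbour had 119 in vehicle and 96 in GSK2879552. On chromosome 20, the site at chr20:52238006-52238330 had 12 beside a neighbour with 101 and 67. All 3 lay at least 7921 bp from that neighbour. The next were chr20:25204049-25204223, with 10 fragments beside 80 and 67, and chr3:169055469-169055750, with 11 beside 88 and 62. The 5 neighbours had fewer fragments in GSK2879552 than in vehicle, yet each kept at least 62.

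At the opposite end, 240 sites were stronger than the neighbour that was retained. They had a median of 18 vehicle fragments (16 to 23.25), against 15 (13 to 18) at their neighbours, which had a median of 14 in GSK2879552. The highest ratio was at chr2:181595741-181596025, with 28 fragments, whose neighbour 7712 bp away had 11 in vehicle and 13 in GSK2879552. At chr4:118321289-118321570 the site had 26 fragments and the neighbour, only 404 bp away, had 11 in both libraries. Here the stronger of a pair of adjoining peaks was not called after GSK2879552 and the weaker was. A pair of vehicle-only sites on chromosome 6, chr6:47669141-47669419 and chr6:47666067-47666316, each with 26 fragments, shared a neighbour that had 12 in vehicle and 11 in GSK2879552. At chr2:12301205-12301517 the site had 26, and the neighbour had 13 in vehicle and 9 in GSK2879552. Local backgrounds at these 240 sites and at their neighbours were close, with medians of 1.79 and 1.76 fragments.

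The strongest sites by −log10 p were of both kinds. The first, at chr10:36918491-36918771, had 54 vehicle fragments over a local background of 6.84, with a stronger neighbour 785 bp away that had 89 in vehicle and 79 with GSK2879552. It was followed by chr2:102901855-102902132, with 29 fragments over a background of 1.59 and a weaker neighbour that had 18 in vehicle and 10 with GSK2879552. The site on chromosome 2 with the highest ratio, given above, came next. The site at chr20:46541962-46542241 had 32 fragments beside a neighbour with 66 and 48 fragments. At chr10:54212404-54212719, 50 fragments over a background of 7.47 stood 791 bp from a neighbour with 70 and 44. The site at chr3:160860338-160860621 had 34, and its neighbour 37 before and 21 after GSK2879552. The log2 ratio of GSK2879552 to vehicle at that neighbour, -0.82, lay below the interquartile range of all neighbours. So did -0.94, -0.85, -0.67 and -0.64 at other neighbours of the 10 strongest sites, and the rest lay within or above that range. Over the 10 strongest sites this ratio at the neighbour ran from -0.94 to 0.24. Every neighbour was called after GSK2879552 by the rule. At chr3:120402841-120403112 and its neighbour the vehicle numbers were equal, 29 each, and the neighbour had 20 in GSK2879552. The site at chr2:1721129-1721397 had 28 fragments, and its neighbour had 21 and 11. At chr8:79468336-79468565, 36 fragments stood 2679 bp from a neighbour with 39 in vehicle and 25 in GSK2879552. The remaining site of the 10 strongest was the one on chromosome 4 described above.

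The local background was higher at these sites than at isolated ones, and it changed in a step with distance. The background is the number of fragments per position that the peak caller expects around a summit; above its genome-wide floor it moved in steps of 1 read per 10 kb window. Its median was 1.88 (1.42 to 2.62) at the sites and 1.33 (1.10 to 1.66) at isolated vehicle-only sites. At the neighbours it came to 120.0 reads per 10 kb, against 107.5 at the sites. It stood at the floor of 1.08 at 5.53% of the sites (4.52 to 6.69) and at 22.3% of isolated ones (21.2 to 23.5). At the 771 vehicle-only peaks with only vehicle-only summits in range, the median was 1.65 (1.31 to 2.13). Of these, 6.36% (4.74 to 8.32) were at the floor, so a low share at the floor was not particular to sites beside a retained peak. For the 872 sites with the neighbour within 5 kb the median was 2.32, equal to 132.5 reads per 10 kb, and 4 were at the floor. For the 918 sites farther away it was 1.59, equal to 91 reads per 10 kb, and 95 were at the floor. The step lay at 5 kb, the half-width of a 10 kb window. Of 10 distance classes, the 4 up to 5 kb had medians of 2.22 to 2.48 and the 6 beyond it 1.56 to 1.66.

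**Figure D3:**
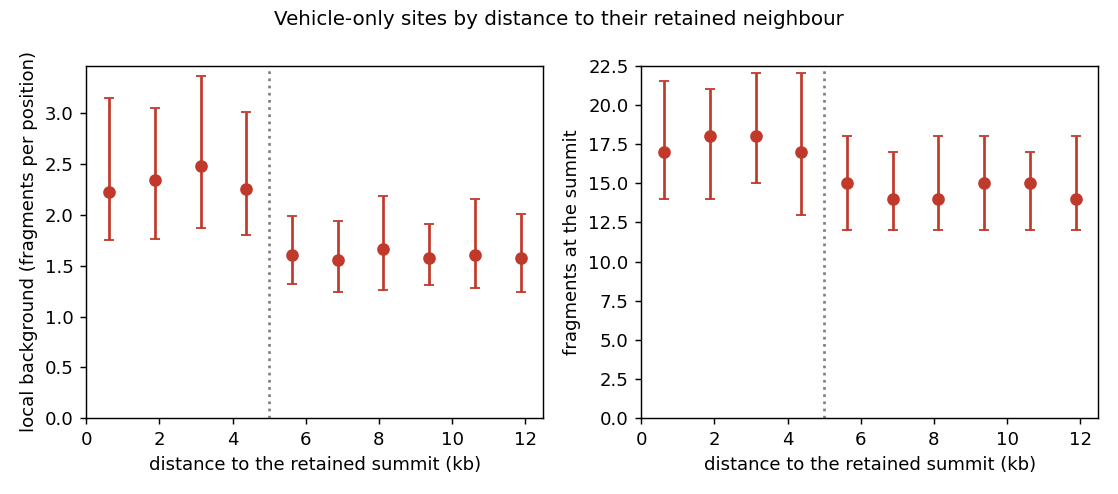
Local background in fragments per position (left) and vehicle fragments at the summit (right) of the 1790 vehicle-only sites, by distance to the retained summit in classes of 1.25 kb. Points are medians, bars interquartile ranges and the dotted line marks 5 kb, where the median background falls from 2.26 to 1.61.

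Fragments moved with the background. The median number at the summit was 17 (14 to 21.25) at the sites within 5 kb of the neighbour and 14 (12 to 18) beyond. Among the 1198 sites with 1 retained and no other vehicle-only summit in range, the background was 120.0 reads per 10 kb within 5 kb and 89 beyond, and the fragments were 16 and 14. Within 5 kb the background was higher the stronger the neighbour. With neighbours split at the quartiles of their vehicle fragments into 4 groups, the median background at the site was 1.69, 2.19, 2.47 and 3.62 from the weakest to the strongest group. Beyond 5 kb the same groups gave 1.37, 1.54, 1.63 and 1.94. At like background, the sites held about as many fragments as isolated vehicle-only sites. The median was 15 in both sets at a background of 1.5 to 2, and 17 in both at 2 to 3, and over 6 background classes the medians differed by at most 1 fragment. The larger fragment number at sites with a retained neighbour than at isolated ones goes with a higher background. The 771 vehicle-only peaks with only vehicle-only summits in range had a median of 14 fragments (12 to 18). The part of the background in the missing calls was not tested.

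The weakest peaks called had nearly the same fragment numbers in both lists at like background. In 6 background classes from 1 to 10, the fewest fragments were 7, 7, 8, 10, 14 and 18 in vehicle and 7, 8, 9, 10, 14 and 17 in GSK2879552. At a background of 1.5 to 2, the weakest GSK2879552 peak had 9 fragments and the median one 17, while the sites had at least 10 and a median of 15. At a background of 2 to 3 the GSK2879552 peaks had at least 10 and a median of 23, and the sites at least 11 and a median of 17. The sites had to be called in vehicle, which sets their lowest values; the classes hold 1774 of them, and the other 16 had a background of 10 or more. How many fragments these sites held after GSK2879552 is not known, since a peak list gives values only where a peak was called.

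The vehicle-only share of peaks with a retained summit in range was set beside that of other peaks at like strength. Of all 21065 vehicle peaks on these chromosomes, 38.0% were vehicle-only. Of the 5130 with another retained summit in range the share was 34.9% (33.6 to 36.2), and of the 15935 without one it was 39.1% (38.3 to 39.8). Peaks with a retained summit in range were stronger, with a median of 22 fragments against 17. With all peaks split into 10 bins by −log10 p, the share was lower beside a retained summit in 6 bins, higher in 3 and 0 in both groups in the strongest bin. The difference ran from -6.54 to 1.71 percentage points with a mean of -1.22 over bins that include the strongest 3, where both shares were low. It was largest in bin 3, with 60.8% (56.2 to 65.2) against 67.3% (65.0 to 69.6), and in bin 5, with 41.1% (36.7 to 45.6) against 47.2% (44.7 to 49.6). The intervals of the groups overlapped in all 10 bins, which does not show that the shares were alike. The overlap of the lists defines both groups, so these shares are a description.

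**Figure D4:**
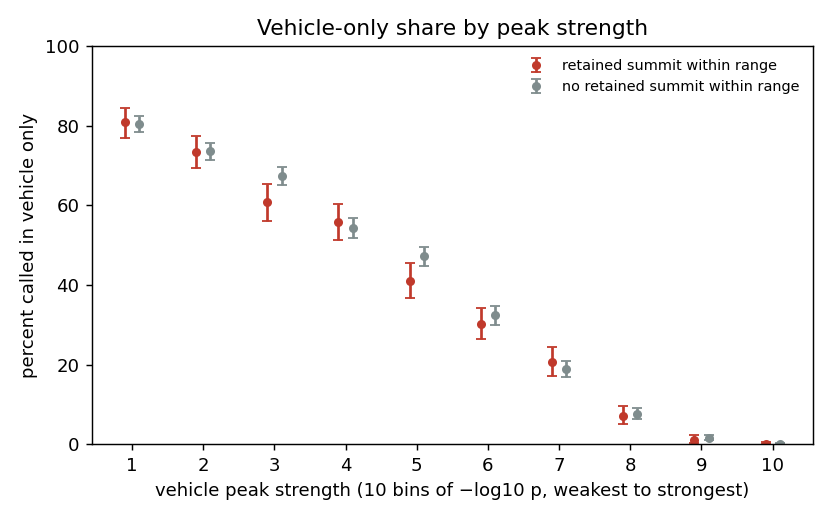
Percent of vehicle peaks called in vehicle only (y axis) in 10 bins of −log10 p from weakest to strongest (x axis), for peaks with and without another retained summit within 12.5 kb. Points are shares and bars 95% exact binomial intervals, and in both groups the share falls from 80.9% and 80.5% in bin 1 to 0 in bin 10.

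Over 5 classes of distance to the retained summit, the vehicle-only share ranged from 32.0% to 42.5%. Summits of sites and neighbours lay a median of 5233 bp apart (1882 to 8390), and retained peaks lay 5198 bp (1840 to 8256) from their nearest retained peak. Among vehicle peaks with another retained summit within 500 bp, 42.5% (35.8 to 49.4) were vehicle-only. The share was 32.0% (28.0 to 36.3) at 500 to 1000 bp, 33.3% (30.2 to 36.5) at 1000 to 2500 bp, 36.9% (33.7 to 40.2) at 2500 to 5000 bp and 34.7% (32.9 to 36.5) beyond. The closest class, with 91 vehicle-only sites among 214 peaks, had the highest share, and its interval overlapped those of the other classes. The neighbour lay at the higher coordinate for 912 sites and at the lower for 878, and 203 sites had a retained summit on both sides.

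The 5 closest pairs named here had summits 238 to 292 bp apart. At chr13:75923419-75923595 the summit lay 238 bp from that of its neighbour, with 13 vehicle fragments beside a neighbour with 11, and 8 with GSK2879552. At chr10:46193328-46193502 the distance was 267 bp, with 11 fragments beside 11 and 12. At chr15:59576316-59576513 it was 285 bp, with 11 beside 16 and 14. In these 3 pairs the vehicle-only sites had 11 to 13 fragments, below the median of 16 over all sites. Close sites were not weaker as a set: the 91 with a neighbour within 500 bp had a median of 17. At chr17:55956836-55957010 and chr5:170564900-170565109 the distances were 286 and 292 bp, the sites had 16 and 13 fragments, and the neighbours had 31 and 18 in vehicle and 17 and 11 in GSK2879552. Some gaps were short: a GSK2879552 interval ended within 100 bp of 18 sites without touching them. At chr1:56781322-56781562 the gap was 5 bp to a GSK2879552 peak that overlapped the neighbour. At chr11:94571146-94571320 and chr11:101982822-101983011 the gaps were 7 and 8 bp, to GSK2879552 peaks with 11 and 9 fragments that overlapped no vehicle peak. At chr10:42529701-42529944 and chr10:49220296-49220524 they were 62 and 70 bp. The median gap over all sites was 4744 bp.

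The limit of 12500 bp cut through like sites. Just inside it lay chr7:142954695-142954928 at 12499 bp and chr3:45701122-45701348 at 12497 bp, each with 17 fragments. The next 3 inside, chr17:38269907-38270176, chr6:25922756-25922964 and chrX:62571304-62571478, had 11, 11 and 12. Just outside lay chr18:7945985-7946207 at 12511 bp with 17 fragments, chr8:75585286-75585502 at 12518 bp with 12 and chr6:99029730-99029904 at 12520 bp with 11. They were followed by chr2:166442671-166442904 with 23 and chr13:82893031-82893219 with 11.

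The retained neighbours themselves carried fewer fragments after GSK2879552, with a median like that of other retained peaks. At 1649 neighbours, the neighbour and a GSK2879552 peak were each the best overlap of the other. Their median log2 ratio of GSK2879552 to vehicle fragments, scaled by the background floors, was -0.32 (interquartile range -0.58 to -0.07), a ratio of 0.798. It was -0.32 (-0.59 to -0.09) at 8350 retained peaks with no vehicle summit in range and -0.32 (-0.59 to -0.08) at 2668 with only retained summits in range. Without scaling, 1287 neighbours (78.0%) had fewer fragments, 90 as many and 272 more. Fewer fragments were found at 77.9% of the retained peaks with no vehicle summit in range and at 79.8% of those with only retained summits. Over all matched vehicle peaks the share was 78.2%, so the neighbours did not differ from the list in this. Beside the 240 sites that were stronger than their neighbour the median was -0.0030, and beside the 1485 weaker ones -0.38. A weak neighbour had to stay callable to be retained, which by construction keeps out weak neighbours with large losses. From the weakest to the strongest of the 4 groups of neighbours, each counted once per site, the median was -0.09, -0.37, -0.39 and -0.48. Both splits use the neighbour's vehicle fragments, which are also the denominator of this ratio. That favours lower ratios at stronger neighbours by construction, so these medians are a description only.

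Most of the sites stood in small groups. Linking vehicle summits at most 12.5 kb apart placed them in 1599 clusters, of which 1086 held only the site and its neighbour, 349 held 3 peaks and 164 held 4 or more. There were 1453 sites with 1 retained summit in range, 264 with 2 and 73 with 3 or more, and these had medians of 15 fragments for 1 and 22 for 3 or more. The local background was 1.77 and 3.81 in these sets. Most neighbours served 1 site, 132 served 2 and 4 served 3.

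Those 4 neighbours show how sites flank a retained peak. At chr5:114765186-114765646 the neighbour had 40 vehicle fragments and 17 with GSK2879552, and the sites, with 13, 18 and 20, lay 6290 bp to one side and 900 and 3232 bp to the other. At chr5:149317249-149317460 it had 26 and 20, with sites of 18, 21 and 18 fragments all on the same side, 1377 to 5509 bp away. The neighbour at chr7:136690658-136690846 was itself weak, with 14 in vehicle and 17 in GSK2879552, and its 3 sites had 13 each. At chr10:33630670-33630967 it had 37 and 25, with sites of 19, 29 and 27. Among neighbours of 2 sites, the one with the highest −log10 p, chr18:52434332-52434689, had 90 in vehicle and 71 in GSK2879552, and both sites, with 20 and 29, lay on the same side.

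Clusters with a background of 25 or more were left out, which removed 1 with 3 or more sites. Of the rest, the cluster with the most sites was chr10:33595654-33641409, with 5 vehicle-only and 3 retained peaks over 45.8 kb. Ties among clusters of 3 sites were broken by the highest −log10 p in the cluster, which favours clusters with strong retained peaks. In the first cluster the retained peaks had 81, 79 and 37 vehicle fragments and 47, 49 and 25 with GSK2879552. The 5 vehicle-only sites between and beyond them had 27, 35, 19, 29 and 27 in vehicle, all below the weakest retained peak. In chr20:44399962-44421141, 3 sites with 17, 20 and 14 fragments stood among retained peaks with 78, 43 and 20 in vehicle and 54, 25 and 20 in GSK2879552. The site with 20 equalled the weakest retained peak, over a local background of 5.36 against 2.40 there. In chr21:37826647-37850837 the sites had 12, 24 and 15 and the retained peaks 31 and 51 in vehicle, 18 and 42 in GSK2879552. The clusters chr12:90144574-90173177 and chr12:25945007-25967047 held 3 sites each, with 11 to 15 and 19 to 21 fragments, beside retained peaks of 18 and 40 and of 35 and 43. In these 5 clusters no vehicle-only site had more fragments than the weakest retained peak. Of all 10 clusters with 3 or more sites and no background of 25 or more, this held in 8. In chr3:191039190-191076974 a site had 19 fragments and the weakest retained peak 14. In chr2:90371683-90391439 they had 52 and 34. The site with 52 stood over a local background of 15.9, against a median of 1.88 over all sites.

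**Figure D5:**
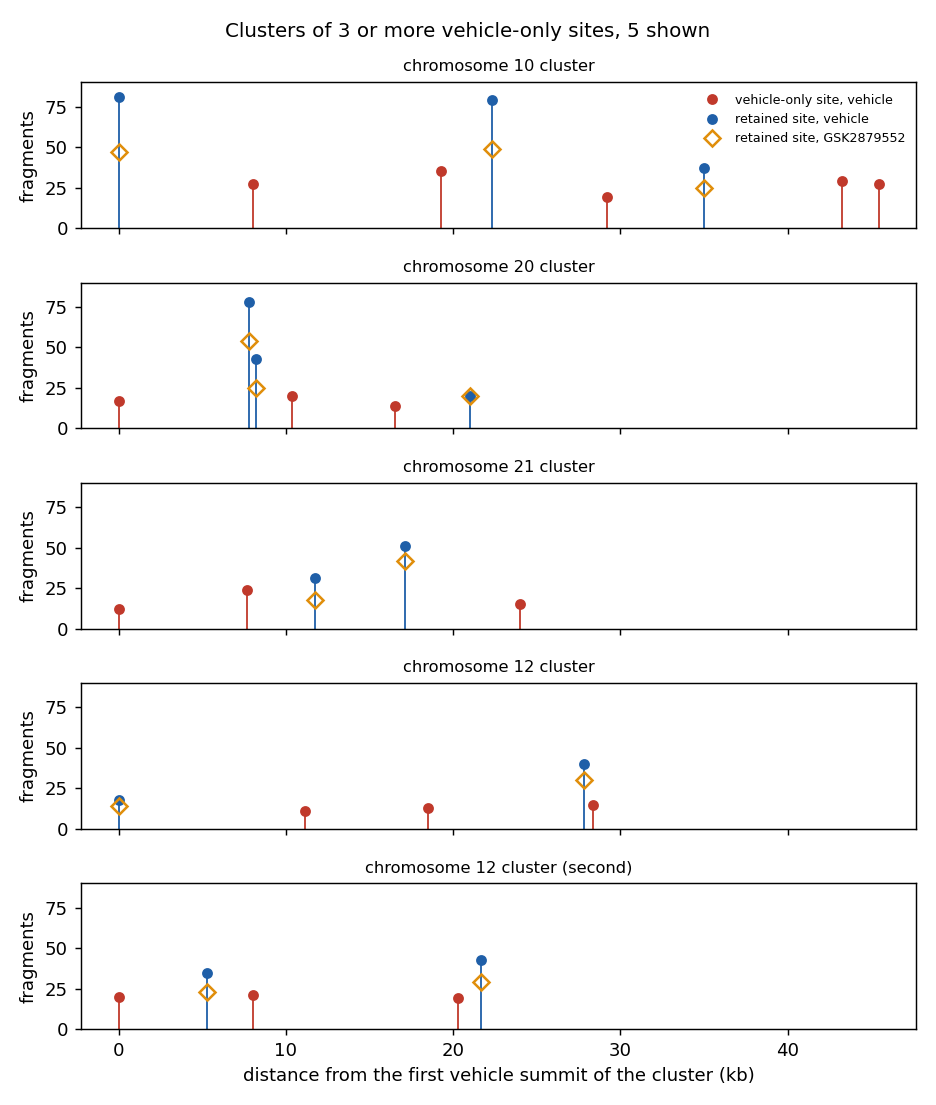
Fragments at the summit (y axis) along the cluster with 5 vehicle-only sites and 4 of the 9 clusters with 3, those with the highest −log10 p, against distance in kb from the first vehicle summit (x axis). Red circles are vehicle-only sites and blue circles retained sites in vehicle, and open diamonds are the retained sites in GSK2879552; vehicle-only sites stand at 11 to 35 fragments.

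The share of vehicle-only peaks that stood beside a retained peak differed between chromosomes. It was highest on chromosome 10, with 108 sites (28.9%, 24.3 to 33.8), followed by chromosome 12 with 113 (28.8%, 24.3 to 33.5) and chromosome 3 with 191 (27.4%, 24.1 to 30.8). Of all vehicle peaks, 34.7% (31.9 to 37.6) on chromosome 10 had another retained summit in range, as did 26.5% (23.8 to 29.2) on chromosome 12 and 26.8% (24.9 to 28.9) on chromosome 3. As a share of all vehicle peaks the sites came to 9.61%, 10.5% and 9.80% on these chromosomes. Among vehicle-only peaks the share was lowest on chromosome X, with 31 sites (12.4%, 8.58 to 17.1). Chromosomes 19 (14.1%) and 22 (14.3%) came next, with only 11 and 7 sites. Of all vehicle peaks, 17.2%, 15.3% and 14.8% on these chromosomes had another retained summit in range. Sites on chromosomes 8, 10 and 14 had the most fragments, with medians of 19, 21 and 19, and the highest local backgrounds, 2.78, 3.29 and 2.98. On the other 20 chromosomes the medians at the sites were 12 to 18.5 fragments and 1.23 to 2.31 of background. The neighbours on chromosomes 8, 10 and 14 were also high, with medians of 34.5, 32.5 and 31 fragments. Fragments at all vehicle peaks were not compared by chromosome.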

How the data were processed

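FOXA2 ChIP-seq peak lists of PC3 cells given vehicle or GSK2879552 were analysed, 1 list per condition from 2 lanes. The submitters' processing notes name MACS2 2.1.2, BWA 0.7.2 and SAMtools 0.1.18, with hg19 as the build. Caller options, duplicate handling and any control library are not given in these sources. The deposited fold is a ratio of summit fragments to local background after adding 1 to each. Values of −log10 p and of −log10 q are those of the authors' peak caller, and the score is 10 times the latter, per the deposited columns. Scores and folds are the authors' and were used only within a list.

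Fragments and local background were solved from fold and −log10 p. A whole number under 1500 fragments matched within 0.001 at 100% of peaks in both lists, with a second match at 3 vehicle and 7 GSK2879552 peaks. On simulated data 100% of 2911 vehicle and 100% of 2897 GSK2879552 summits were recovered. Above the floor, every background (100%) was a whole number of steps, to within 0.05, where a step is the shortest interval (175 bp in vehicle, 168 bp in GSK2879552) divided by 10 kb. Reads per 10 kb and the depth, 6.17 reads per kb in vehicle and 6.44 in GSK2879552, assume a background made without a control library. GSK2879552 to vehicle ratios were scaled by the background floors, 1.079 and 1.082, over pairs of mutual best overlap.

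An independent count by bedtools 2.31.1 also found 13217 vehicle peaks overlapped by at least 1 bp. Python 3.11.15, numpy 2.4.6, pandas 2.3.3 and scipy 1.17.1 were used. Intervals of shares are exact (Clopper-Pearson) 95% binomial intervals and cover counting error only. Sites were named by rule: the 10 highest by −log10 p, 5 each by distance, lowest ratio, highest ratio, neighbours and clusters with the most sites, the distance limit and the gap to a GSK2879552 interval, with ties broken by −log10 p. All but the last 2 left out backgrounds of 25 or more. The members and rules were chosen with earlier results of these data known. Motifs and gene lists were not analysed here.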

Additional observations from a re-analysis of the deposited data

How the results depend on the processing

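In these results 100 values were recomputed (10 results under 10 settings). Of these, 67 stayed the same, 33 moved and none reversed. A share or median stayed the same within the 95% interval of the reported value (exact binomial, or from order statistics). The number of sites stayed the same within 1.5 times the reported one. Only the log2 ratios can change sign, so no other result could reverse. With the strongest retained peak as neighbour the sites stay the same, so their number, shares and own values could not move. With summits within 5000 bp there were 872 sites (10.9% of vehicle-only peaks) at a median of 1823 bp, with 17 fragments, a background of 2.32 and a log2 ratio to the neighbour of -0.55. With summits within 25000 bp there were 2798 (34.9%) at 8847 bp with a background of 1.72. With retention by summits within 100 bp the median width was 216 bp, and 37.6% of peaks with a retained summit in range were vehicle-only. With 50% of the interval covered that share was 36.5%. With both lists at −log10 q of at least 5, the values were 19.9% of vehicle-only peaks, 17 fragments, 27 at neighbours, a background of 1.98 and a width of 223 bp. At −log10 q of at least 10 there were 623 sites (12.8%), and 38.9% of peaks with a retained summit in range were vehicle-only. The sites then had 25 fragments, the neighbours 38, the background was 2.54, the width 268 bp, the log2 ratio to the neighbour -0.55 and that of GSK2879552 to vehicle at neighbours -0.30. With only the vehicle list at −log10 q of at least 5, the share was 29.97%, with 17 fragments, a width of 218 bp and a log2 ratio of -0.56. With the strongest retained peak in range as neighbour, the ratio was -0.74 at 5823 bp. Other distance limits and thresholds change which peaks are counted by construction; beyond that the cause was not tested. Removing backgrounds of 25 or more, and adding all other sequences, moved none of the 10 results. The motif setting was not run. No list omits a lane, so no lane could be left out. No paired analysis was possible because each condition has 1 peak list. How far depth limits the calling of weak peaks was not tested.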

Other observations

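The reverse arrangement was also present. Of 1564 peaks called only after GSK2879552 on the same chromosomes, 332 (21.2%, 95% exact binomial interval 19.2 to 23.3) lay within 12.5 kb of a GSK2879552 peak that overlapped a vehicle peak. They had a median of 14 fragments in GSK2879552 against 20 at that neighbour, and 265 of them (79.8%) were the weaker of the pair, an order that their choice by a missing call favours. Their median log2 ratio to the neighbour was -0.44, their median distance 5184 bp and their median background 1.83. The share of all GSK2879552 peaks with such a neighbour in range was not computed, so the 21.2% cannot be set against it. Among the 1790 vehicle-only sites, 79 (4.41%) had a GSK2879552-only summit within 12.5 kb, and 67 GSK2879552-only peaks were involved. The share among other vehicle peaks was not computed, so this number cannot be set against it.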
